A study of Mus musculus with 19 samples.

Results

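The histone genes of the mouse were examined for chromatin bound by an antibody to SOX3 in the juvenile testis. They were chosen by name from the RefSeq annotation of GRCm38.p6, the assembly that corresponds to mm10, as every core or linker histone gene of the H1f, H2ac, H2bc, H3c and H4c series (formerly Hist1h to Hist4h) and the variants H2az1, H2ax, H3f3a and H3f3b. The names matched 80 entries, of which 5 were annotated as pseudogenes and left out, so 75 of 26180 genes with a curated transcript were kept. Of these, 67 were clustered genes, 4 were replacement variants and 4 were linker histone genes that lie outside the clusters (H1f0, H1f10, H1f7 and H1f8). The set was taken up because SOX3 peaks had been seen at histone genes in these same lists, so the presence and height of those peaks are given as a description and were not tested.

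The lists came from testes at postnatal day 7, with SOX3 ChIP-seq in duplicate and ChIP-nexus for the same factor in duplicate, the latter an assay in which an exonuclease trims the precipitated DNA back toward the bound protein. The labels name 19 samples in all, and the other 15 (inputs and libraries for other factors or chromatin marks) were not analysed here. The labels give no genotype, strain or treatment for the 4 samples, and all 4 carry the same pair of SOX3 antibodies, so no condition was compared. The study's methods describe seminiferous tubules pooled from several mice, and cell types cannot be told apart in such chromatin. The replicates are separate samples in the labels, and the methods call them independent.

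Each nucleosome is built of the core histones H2A, H2B, H3 and H4, and linker histone H1 binds the DNA between nucleosomes. As a rule, clustered histone genes are replication-dependent, that is, transcribed when the cell copies its DNA. Most lack introns, and their mRNAs end in a conserved stem-loop in place of a poly(A) tail. Replacement variants such as H3.3 and H2A.Z come from ordinary polyadenylated genes and are made throughout the cell cycle. The testis adds its own versions, among them H1t (H1f6) in spermatocytes and TH2A and TH2B (H2ac1 and H2bc1) in spermatogenic cells. SOX3 is an SRY-related HMG-box factor present in spermatogonia.

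The division into clustered genes and variants was checked against sequence that the choice of members did not use. Of the clustered genes, 54 lay in the Hist1 cluster on chromosome 13, 10 in Hist2 on chromosome 3, 2 in Hist3 on chromosome 11, and 1 (H4f16, formerly Hist4h4) stood alone on chromosome 6. The letters of the histone mRNA stem-loop (CTTTT, any base and AG, with GG and CC each 2 bases outside them, on the sense strand) were found from 150 bases before to 50 bases after an annotated transcript end in 66 genes of all 26180 (0.252%). Of those 66, 62 were clustered histone genes, which is 92.5% of the 67. None of the 4 variants and none of the 4 outside linker genes held the letters in that window. Letters further inside a longer transcript, such as those annotated for H2ax and H2bc21, would have been missed. The scan therefore does not show that these genes lack the element. The clustered genes without a match were H2ac22, H2bc21, H3c6, H3c8 and H4c1.

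Clustered H2A and H2B genes are often arranged head to head, and 12 such pairs were found, all of 1 H2A and 1 H2B gene, with 163 to 280 bases (median 209) between the start sites. Promoter DNA is shown for the genes on which the peak values below turn, read on the strand of the named gene and ending 1 base before its transcription start site (TSS). Capitals mark CCAAT, the octamer ATTTGCAT, the TATA box TATAAA and the SOX letters AACAAT or AACAAAG, on either strand. The sequences are from RefSeq promoters of GRCm38.p6. The first 2 are the whole stretch between the start sites of the head-to-head pairs with the highest ChIP-nexus enrichment, H2bc13 with H2ac13 (chr13:21716184-21716411, plus strand) and H2ac15 with H2bc15 (chr13:21753913-21754075, plus strand).
H2ac13: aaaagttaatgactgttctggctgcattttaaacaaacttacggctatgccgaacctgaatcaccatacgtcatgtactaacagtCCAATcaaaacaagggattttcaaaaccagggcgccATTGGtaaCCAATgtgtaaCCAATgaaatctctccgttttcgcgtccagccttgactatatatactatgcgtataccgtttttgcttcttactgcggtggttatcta
H2bc15: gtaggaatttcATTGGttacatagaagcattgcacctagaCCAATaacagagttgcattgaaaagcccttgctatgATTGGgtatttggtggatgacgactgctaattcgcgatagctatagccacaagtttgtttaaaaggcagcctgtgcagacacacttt
H2bc18 (chr3:96269550-96269699, plus strand) is shown for the octamer, which it carried 48 bases before its TSS, with CCAAT 79 bases before it.
H2bc18: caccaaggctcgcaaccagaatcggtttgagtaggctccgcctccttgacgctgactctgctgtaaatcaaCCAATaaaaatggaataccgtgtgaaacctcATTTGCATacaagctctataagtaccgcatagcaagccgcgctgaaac
H1f2 and H1f6 are the linker genes of the clusters with the highest and the lowest ChIP-seq scores (chr13:23738657-23738806 and chr13:23695661-23695810, plus strand), and each carried a single CCAAT.
H1f2: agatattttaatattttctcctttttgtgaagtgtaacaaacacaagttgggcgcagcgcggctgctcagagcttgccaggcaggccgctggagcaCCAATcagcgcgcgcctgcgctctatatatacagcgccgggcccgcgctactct
H1f6: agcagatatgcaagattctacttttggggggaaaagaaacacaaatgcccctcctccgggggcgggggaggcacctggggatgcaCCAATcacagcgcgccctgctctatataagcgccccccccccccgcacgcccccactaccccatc
H4c11 (chr13:21734884-21735033, plus strand) had the highest ChIP-nexus enrichment of any H4 gene and held none of the marked letters.
H4c11: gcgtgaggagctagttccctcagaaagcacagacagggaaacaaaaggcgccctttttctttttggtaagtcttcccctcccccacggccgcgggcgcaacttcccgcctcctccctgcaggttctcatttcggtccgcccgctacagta
H3f3b (chr11:116024505-116024654, minus strand) had the highest ChIP-seq score of all 75 genes, and H2bc23 (chr13:21810200-21810349, minus strand) was in neither ChIP-seq list.
H3f3b: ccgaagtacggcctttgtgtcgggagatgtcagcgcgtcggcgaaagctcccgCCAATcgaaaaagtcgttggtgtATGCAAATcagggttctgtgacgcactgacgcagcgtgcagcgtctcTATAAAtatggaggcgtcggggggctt
H2bc23: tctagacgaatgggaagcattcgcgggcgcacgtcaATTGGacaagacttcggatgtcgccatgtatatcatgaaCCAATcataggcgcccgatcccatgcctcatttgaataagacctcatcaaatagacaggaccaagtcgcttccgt

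Across the RefSeq promoter table, which spans 250 bases before to 50 bases after each TSS, 69 of the 75 genes were matched, with 70 promoters. H2ax, H2bc21, H2bc4, H3c1, H3c7 and H4c14 were not matched. CCAAT stood in 85.7% of the 63 clustered promoters and in 37.4% of all 32851 promoters, and it was present in every H1, H2A, H2B and H3 promoter but in only 25% of the 12 H4 promoters. TATAAA was present in 55.6% of clustered promoters against 13.6% of all. The octamer was found in 22.2% of clustered promoters against 1.74% of all, and only in H2A (38.9% of 18) and H2B (41.2% of 17), not in H1, H3 or H4. The GC box GGGCGG was about as frequent in clustered promoters (38.1%) as in all (35.7%), although it was found in 75.0% of H4 promoters and 11.8% of H2B promoters.

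SOX letters were not a shared feature of these promoters. AACAAT was present in 7.94% of clustered promoters against 10.7% of all, and AACAAAG in 14.3% against 5.85%. Either was present in 12 of 63 (19.05%), against 15.7% of all promoters. Clustered promoters were less GC-rich than promoters at large (median 45.3% against 52.7%), with a higher observed over expected CpG ratio (0.746 against 0.384), while the 3 variant promoters in the table were GC-rich (71.3%, CpG ratio 1.06). Such matches describe the letters in the window and do not mark a bound site.

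**Figure D1:**
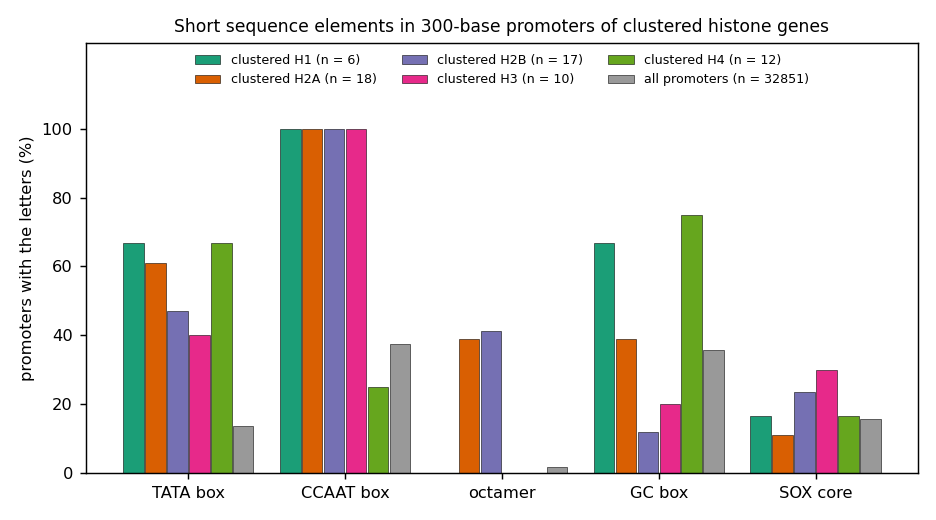
Share of 300-base promoters (y axis, %) that hold each short element on either strand, for the clustered genes of each histone family and for all RefSeq promoters (grey). CCAAT was in all H1, H2A, H2B and H3 promoters and in 25% of H4 promoters, the octamer was restricted to H2A and H2B among the families, and SOX letters were found in 11.1% to 30% of a family against 15.7% of all promoters.

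SOX3 ChIP-seq peaks lay within 1 kb of a TSS at 69 of the 75 histone genes (92.0% in each replicate), and the same 69 genes had a peak in both. Among all genes, 60.5% had such a peak in replicate 1, 52.4% in replicate 2 and 50.2% in both (56.3% of 21000 protein-coding genes in both). The peaks were also high: all 69 genes, 92.0% of the 75, passed a q score of 60 in both replicates, against 34.5% of all 26180 genes. Among genes with a peak in both replicates, 69 of 69 histone genes and 9030 of 13151 genes in all passed it. The q score is −10log10 of the adjusted p-value of a peak against input, and the lists begin at 30. Since scores depend on the library as well as the site, groups of genes are compared below only within a list or as ranks.

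Every one of the 69 peaks covered the TSS itself in both replicates, at a distance of 0 bp. The nearest genes beyond the 1 kb limit were 4 clustered genes, with the closest peak 1128 to 1408 bp from their TSS, and H1f8, at 1235 bp in replicate 1. There was thus a gap, with no member between 0 and 1000 bp. Of the 61 genes shorter than 1500 bp with a peak, 60 lay wholly inside it in each replicate, the exception being H3c6. Peaks at histone genes had a median width of 3004 bp in replicate 1 and 2370 bp in replicate 2, compared with 1657.5 and 1343 bp for all genes with a peak.

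**Figure D2:**
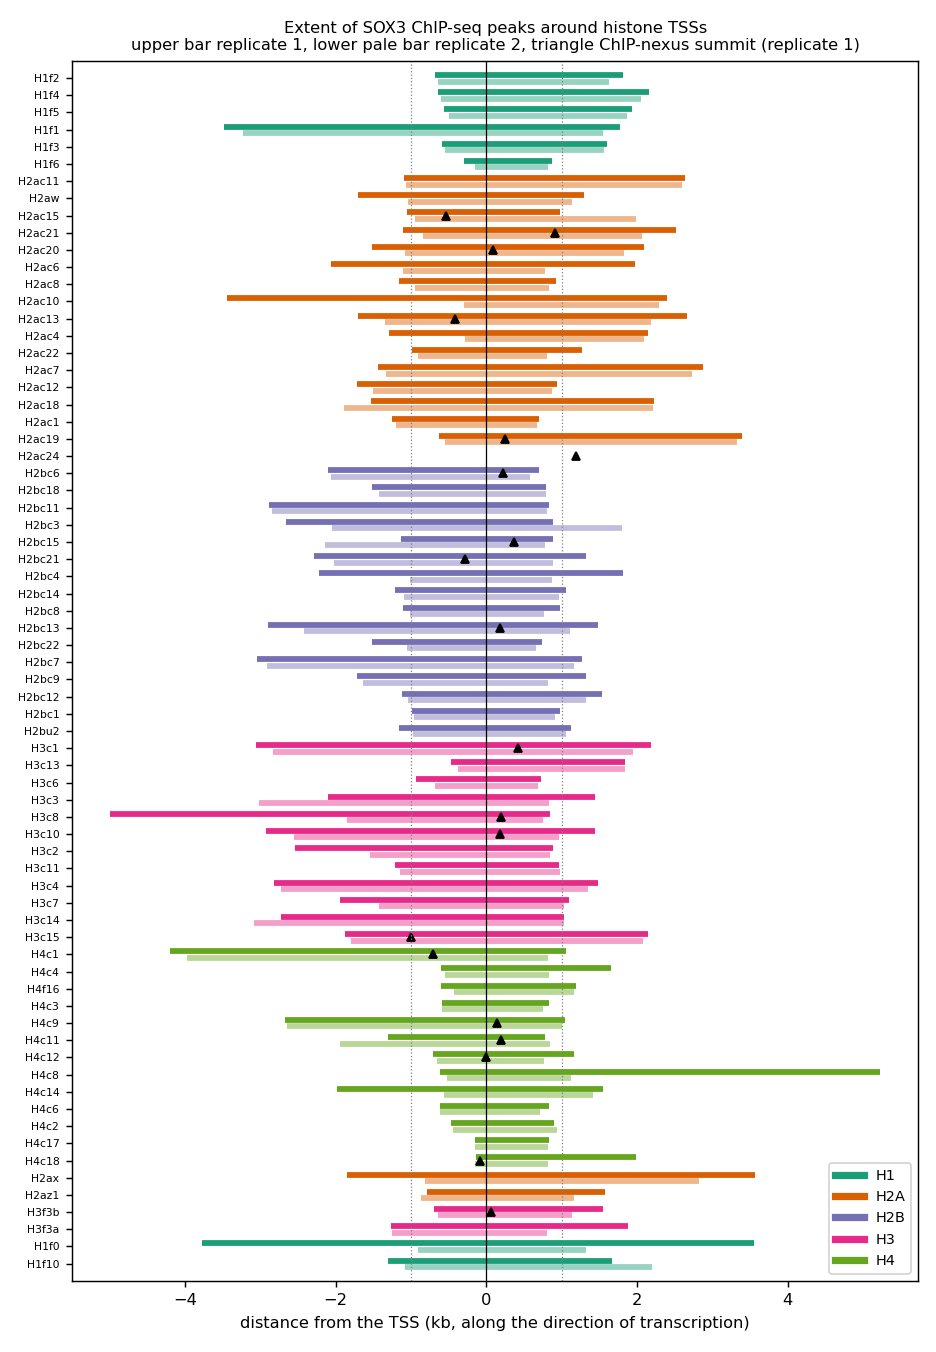
Extent of the strongest SOX3 ChIP-seq peak at each histone gene relative to its TSS (x axis, kb; dotted lines at 1 kb), replicate 1 above and replicate 2 pale below, with the ChIP-nexus summit of replicate 1 as a triangle. All bars cross the TSS, the bars of H4c17 and H4c18 begin just upstream of it, and H2ac24 has a ChIP-nexus summit but no ChIP-seq bar. The triangle of H2bc6 is measured from another of its start sites than the bar.

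Because histone genes are short and lie close together, the 69 genes shared 44 distinct peaks in replicate 1 and 45 in replicate 2. In each list 19 of these peaks covered more than 1 gene, and up to 3 genes lay under a single peak. Genes under one peak carry one score and are not independent. The histone peaks ranked high in lists of 58351 and 38832 peaks: 31 of 44 (70.5%) and 30 of 45 (66.7%) were in the top 1% by q score, and 39 and 40 were in the top 5%. Their best rank was 5 in replicate 1 and 8 in replicate 2, their median rank 190 and 147, and their lowest rank 7902 and 8640.

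The median q score of the histone genes with a peak was 652 in replicate 1 and 299.7 in replicate 2, against 169 and 80.4 for all genes with a peak. The ratio of these medians was therefore 3.86 and 3.73, or 3.79 ± 0.093 (SD, n = 2). The log2 ratio of ChIP over input had medians of 5.76 and 3.99 at histone genes and 3.69 and 2.70 at all genes, a difference of 1.68 ± 0.55 (SD, n = 2). Both replicates thus placed the histone genes above the median gene, by score and by enrichment. No test was made on 2 replicates and on members chosen with these peaks known.

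The replicates ordered the histone genes alike by q score but less so by enrichment. Replicate 1 gave the higher q score at 69 of 69 genes, by a median factor of 2.22 (1.60 to 3.24). Across the 69 genes, which share peaks and libraries, Spearman's rho between replicates was 0.90 for q scores and 0.37 for log2 ratios, given here as a description. The order of single genes by log2 ratio is therefore not relied on.

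Among the replacement variants, all 4 had a peak in both replicates. H3f3b, which encodes H3.3, had q scores of 2051 and 1136, ranks 5 and 8 of their lists, with log2 ratios of 6.44 and 5.06. H2ax, whose product is phosphorylated at DNA breaks and on the sex chromosomes in meiosis, had 1119 and 494 (log2 6.56 and 4.0). H3f3a, the other H3.3 gene, had 833 and 267 (log2 6.46 and 3.30). H2az1, which encodes H2A.Z, was the lowest, with 440.4 and 175 (log2 4.37 and 3.65). H3f3b thus lay above every clustered gene and H2az1 below their median (given next), and both H3.3 genes lay above H2az1 in each replicate.

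The clustered genes had a peak at 63 of 67 (94.0% in each replicate), and their scores ran from 142 to 1771 in replicate 1 and from 61.6 to 936 in replicate 2. The median q score was 618 and 299.7 for clustered genes and 976 and 381 for variants, a ratio of 0.633 and 0.788, or 0.710 ± 0.109 (SD, n = 2). The ranges of the classes overlapped, as the lowest variant lay below the median clustered gene in both replicates. In log2 ratio the medians of clustered genes differed from those of variants by -0.69 in replicate 1 and 0.16 in replicate 2, so that the sign was not the same. The 4 variant windows were 92.4% to 99.1% single-copy (by a measure described below), and with clustered genes limited to windows at least 90% single-copy the ratio of median q scores was 0.857 and 0.975 (0.916 ± 0.084, SD, n = 2). The difference in median score between clustered genes and the 4 variants was thus smaller than the range of scores within either class, and it was not tested.

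**Figure D3:**
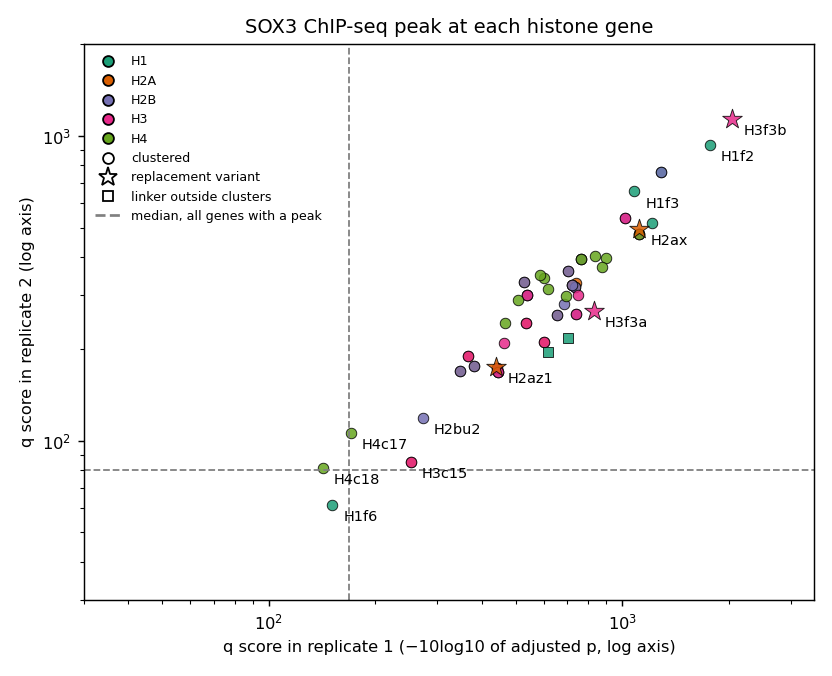
The q score of the strongest SOX3 ChIP-seq peak within 1 kb of each of 69 histone genes in replicate 1 (x axis) and replicate 2 (y axis), both on log axes, coloured by family and shaped by class, with dashed lines at the medians of all genes with a peak (169 and 80.4). H3f3b and H1f2 lie at the upper end, and H1f6 and H4c18 lie at or below the lines.

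Linker histone genes stood at both ends of the clustered set. H1f2 (H1.2) had the highest score of any clustered gene, with 1771 and 936 (ranks 9 and 12, log2 6.73 and 5.10). H1f4 (H1.4) had 1289 and 760.1, H1f3 (H1.3) 1083 and 657, and H1f5 (H1.5) 1216 and 519. H1f1 (H1.1) lay with H4c1 and H3c1 under a single peak of 1112 and 475. These 5 genes had a median q score 1.97 and 2.19 times that of all clustered genes (2.08 ± 0.158, SD, n = 2).

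H1f6, which lies in the same cluster and encodes the linker histone of spermatocytes, was far from the other 5. Its q scores were 151 and 61.6, ranks 7531 and 8640, with log2 ratios of 3.51 and 2.23, the lowest log2 ratio of any histone gene in both replicates. Among all genes with a peak it stood at the 45.2 and 35.1 percentile, below the middle. Its window was wholly single-copy (100%), unlike those of the low-scoring H4c17 and H4c18 described below. In the 150 bases shown above, H1f6 and H1f2 each had 1 CCAAT, 65 and 54 bases before the TSS.

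Of the 4 linker genes outside the clusters, 2 had a peak. H1f0 (H1.0), which accumulates in non-dividing cells, had 703 and 217, and H1f10 (H1.10), a replication-independent gene of somatic cells, had 618 and 195. H1f7, the spermatid linker histone, had no peak within 1 kb, and its nearest peaks were 5541 and 36140 bp away. H1f8, the oocyte linker histone, had none either (1235 and 4297 bp). The windows of both were largely single-copy (91.8% and 100%). The testis histones TH2A and TH2B are encoded head to head by H2ac1 and H2bc1 and shared a peak of 347 and 169.7, below the clustered medians of 618 and 299.7 but above the medians of all genes.

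The core histone families had similar scores. The median q score was 569 and 279 for H2A, 669 and 290 for H2B, 536 and 227 for H3 and 618 and 342 for H4, with ranges that overlapped throughout. Peaks were present at 16 of 18 H2A, 16 of 18 H2B, 12 of 12 H3 and 13 of 13 H4 clustered genes. Of the 8 clustered genes with the best mean rank, 5 were linker genes (H1f2, H1f4, H1f3, H1f5 and H1f1, the last tied with H3c1 and H4c1 under its peak), and the other 3 were H2bc6, which lay under the peak of H1f4, and H2bc18 and H3c13, which lay under a peak of 1016 and 539. H2bc6 has 3 annotated start sites, and the peak that gave its score (1289 and 760.1) covered 2 of them, beside H1f4, whereas its ChIP-nexus peak described below lay at the other.

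By cluster, Hist1 genes had median scores of 609.6 and 299 and Hist2 genes 654 and 324. The Hist3 pair comprised H2aw with 739 and 329 and H2bu2 with 273 and 118. H4f16, the lone Hist4 gene, had 876 and 371. Genes of all 4 loci thus had peaks in both replicates, and within Hist2 the scores were as far apart as 1016 and 539 at H3c13 and 252 and 85.4 at H3c15.

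Histone genes are near-copies of each other, and reads that fit several places were placed at random by the authors' aligner. The share of 50-base sequences that occur once in the genome was therefore counted in the 2 kb around each TSS (1 kb to each side). It had a median of 83.4% over the 75 genes and ranged from 0 to 100%. By family the median was 96.7% for clustered H1, 70.0% for H2A, 70.5% for H2B, 77.0% for H3 and 89.96% for H4. Across the 63 clustered genes with a peak, Spearman's rho between this share and the q score was 0.39 in replicate 1 and 0.38 in replicate 2, given as a description. The order of the families by score and by single-copy sequence thus began with the same one, H1, and the part of sequence copies in the scores was not tested.

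Over all 75 genes, the frequency of peaks was the same on both sides of a minimum of 90% single-copy sequence, but among clustered genes it was not. A peak was present at 23 of 25 genes with windows at or above it and at 46 of 50 genes below it, which is 92.0% of each. The genes at or above it without a peak were H1f7 and H1f8, outside the clusters. Among clustered genes, the 17 with such windows all had a peak, with median scores of 836 and 371, and 46 of the other 50 had one, with 601 and 289. H2bc6 was counted among the 17 by its start sites beside H1f4 (100%) and with the score of that peak. The window at its other start site was 85.7% single-copy. H2bc6 entered the ratio of clustered genes to variants under this limit in the same way.

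The 4 clustered genes without a ChIP-seq peak were H2bc23 with H2ac23 and H2ac24 with H4bc24 (an H2B gene, formerly Hist1h2br), which form 2 of the 12 head-to-head pairs. Their windows held no single-copy 50-base sequence (0%). The other 10 pairs each shared a single peak in both replicates. The nearest peaks to the 4 genes were those over the neighbouring H4 genes H4c17 and H4c18, 1128 to 1408 bp away. H4c17 had 171 and 106 and H4c18 142 and 81.3, among the lowest of the clustered genes, and their windows were 7.02% and 8.04% single-copy. H3c15 and H2ac19, in Hist2, shared a low peak of 252 and 85.4 and had windows of 22.4% and 47.8%. The 4 missing peaks and the scores of H4c17 and H4c18 thus lay where single-copy sequence was least. Other low scores of core histone genes did not: H2bu2 had 93.1% and the pair H2ac1 and H2bc1 92.9%. H3c4, H2ac7 and H2bc7 shared a peak of 168 in replicate 2 and had 81.9%, 67.5% and 63.8%. H2bc9 and H3c7, with 174 in replicate 2, had 83.4% and 74.8%, and H2ac12 and H2bc12, with 175, both had 67.2%. H3c14, with 21.5%, had 367 and 189, above H3c15. An absent peak where no sequence is single-copy does not show that binding was absent.

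**Figure D4:**
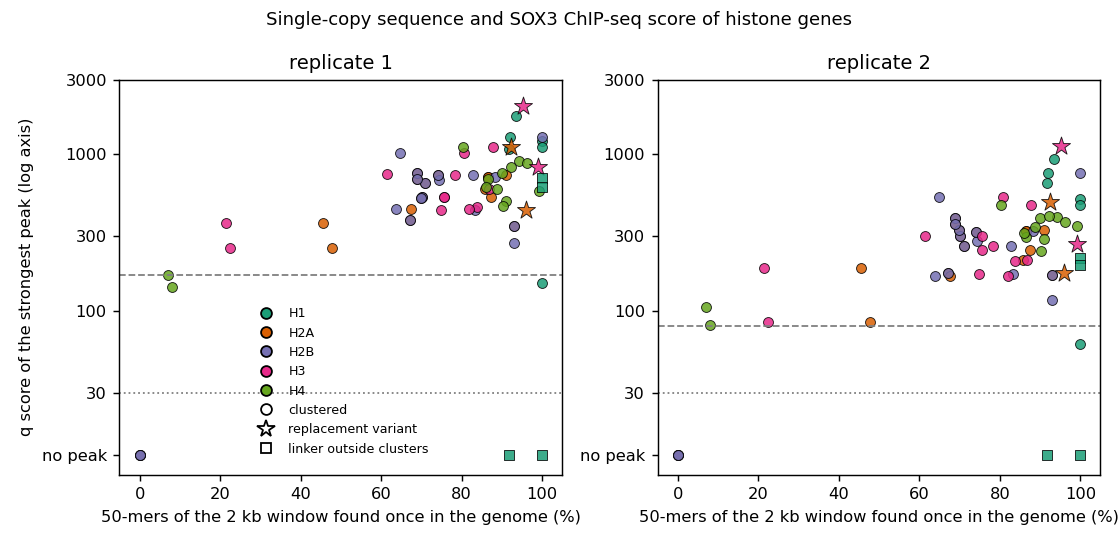
Share of 50-mers in the 2 kb window that occur once in the genome (x axis, %) against the q score of the strongest ChIP-seq peak (y axis, log axis, genes without a peak at the bottom) for the 75 histone genes in each replicate. The dotted line is the score of 30 at which the lists begin and the dashed line the median of all genes with a peak; the single point at 0% stands for the 4 clustered genes without a peak.

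ChIP-nexus gave far shorter lists, with 110 peaks on mouse chromosomes in replicate 1 and 18 in replicate 2. In replicate 1, 15 of 110 peaks (13.6%, exact 95% interval 7.84% to 21.5%, for counting error only) lay within 1 kb of a histone TSS. The interval treats peaks as independent and is a description, since the genes were taken up with these lists known. The 15 peaks reached 20 of the 75 histone genes (26.7%), against 0.176% of all genes, or 46 genes in total. In replicate 2, 0 of the 18 peaks were at a histone gene, where 0.00382% of all genes (1 gene) had a peak. The ChIP-nexus result at histone genes therefore rests on 1 replicate, and it was not detected in the other. Of the 18 peaks in replicate 2, however, only 1 fell on a region that the ChIP-seq lists also hold. Such a list cannot tell a lack of peaks at histone genes from a lack at ChIP-seq sites in general. The absence of histone genes from it does not show that binding was absent.

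The 15 ChIP-nexus peaks all overlapped ChIP-seq peaks of both replicates, whereas only 44 of the other 95 did so in at least 1 replicate. Their fold enrichment over background was 4.79 to 7.66, with a median of 5.70, lower than the median of 7.94 for the other peaks, and −log10 q at their summits was 4.38 to 10.9. Their best rank in the list was 50. They were thus the weaker members of a short list. Their overlap with ChIP-seq peaks was largely set in advance, since those peaks covered the TSS at 69 of the 75 histone genes.

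By family, ChIP-nexus peaks were near 6 of 20 H2A, 4 of 18 H2B, 5 of 14 H3 and 5 of 13 H4 genes, and near 0 of 10 H1 genes. The clustered H1 genes, whose median ChIP-seq score was the highest of the clustered families, were thus without a ChIP-nexus peak, including H1f2. H2bc15 and H2ac15 had the strongest peak, with a fold enrichment of 7.66 and a summit 365 bp past the TSS of H2bc15. H4c11 followed with 7.50 (192 bp past the TSS). H3f3b was the only variant with a peak, 6.68-fold, 61 bp past its TSS.

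The next were the peak of H2bc13 and H2ac13 (6.30, 182 bp past the TSS of H2bc13) and that of H3c1 and H4c1 (5.77, 424 bp past the TSS of H3c1). A peak near H2ac20, H2ac21 and H2bc21 had 5.74 (88 bp past the TSS of H2ac20). H4c12 and the pair H2ac19 and H3c15 had 5.70 each, with summits 6 bp before the TSS of H4c12 and 250 bp past that of H2ac19. Most of these summits thus lay downstream of the start, in the short transcribed part of the gene. H3c10 had 5.66 at 183 bp past its TSS, and H4c18 with H2ac24 had 5.66 at 87 bp before that of H4c18. The remaining 5 peaks, at H4c9, H2bc6, H3c15, H3c8 and H3c1, lay between 4.79 and 4.82.

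In all, 11 of the 15 summits were inside a histone transcript, 61 to 424 bp past its TSS (median 192), and 8 of them lay between 100 and 400 bp past it. Within 100 bases around the summit, AACAAT or AACAAAG was present at 0 of the 15 histone peaks and at 3 of the other 95. The same 100 bases had a median GC content of 66% at histone genes and 51.0% at the others. H2ac24 was the single gene of the 20 with a ChIP-nexus but no ChIP-seq peak within 1 kb, so 19 genes had both.

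**Figure D5:**
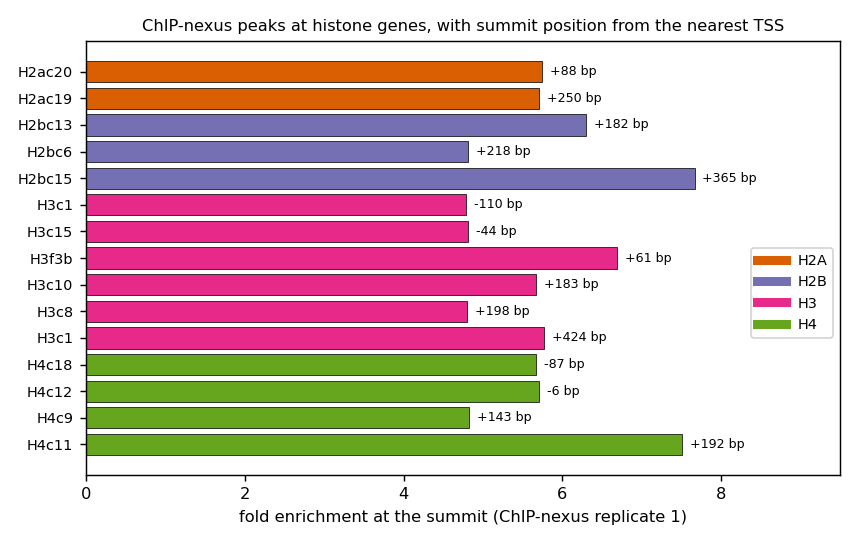
Fold enrichment (x axis) of the 15 ChIP-nexus peaks of replicate 1 within 1 kb of a histone TSS, each named by the gene with the nearest TSS and coloured by its family, with the distance of the summit from that TSS beside the bar (positive is downstream). The enrichments run from 4.79 at H3c1 to 7.66 at H2bc15, and no H1 gene is among them.

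The DNA under the histone ChIP-nexus peaks was repeated more often than under the others, with a median of 31.9% single-copy 50-mers (0 to 100%) against 64.2%. Its part in the peaks was not tested. A further property of the ChIP-nexus list was its share of small RNA genes, since 44 of the 95 other peaks lay within 1 kb of a small nuclear RNA gene. None of the 15 histone peaks did, nor did any small RNA gene overlap the 44 or 45 ChIP-seq peaks at histone genes. Histone genes with a ChIP-nexus peak had slightly higher ChIP-seq scores than those without (medians 721 and 320.0 against 609.6 and 260.4), with wide overlap.

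Genes that supply and handle histones were compared by the same count. This list of 20 held the regulators and processing factors of histone mRNA (Npat, Casp8ap2, Slbp, Lsm10, Lsm11, Zfp473, Cpsf2, Cpsf3 and Sympk) and histone chaperones (Nasp, Asf1a, Asf1b, Chaf1a, Chaf1b, Hira, Ubn1, Cabin1, Daxx, Atrx and Hjurp). All 20 had a ChIP-seq peak in both replicates, where 50.2% of all genes did, and none had a ChIP-nexus peak. Their median q scores of 208 and 109.7 were nearer to those of all genes (169 and 80.4) than to those of the histone genes (652 and 299.7). Hjurp, the chaperone of the centromeric H3, had the highest scores with 598 and 268, and Slbp, which binds the stem-loop, had 594 and 195. The lowest were Chaf1b, a subunit of the replication-coupled assembly factor, with 120 in replicate 1, and Lsm11, a subunit of the U7 particle, with 48.3 in replicate 2.

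Other histone genes outside the naming rule were looked up after the lists had been read. Of 32 such genes, 6 had a peak in both replicates: H2az2, H2aj, Macroh2a1, Macroh2a2, Cenpa and H3f4. H3f4 had the highest of these scores, with 999 and 401. The 21 short H2A genes H2al and H2ab, which are used late in sperm formation, had 0 peaks in replicate 1 and 1 in replicate 2 (H2al3, with a q score of 31.9). Single-copy sequence was not counted for these genes, so their missing peaks do not show that binding was absent. Hils1, the spermatid linker histone also called H1f9, likewise had a peak only in replicate 2, at 31.9, close to the lower limit of the list.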

How the data were processed

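SOX3 ChIP-seq and ChIP-nexus of mouse testis at postnatal day 7 were deposited as peak lists, with 2 replicates of each assay called separately. Per the study's methods, the authors aligned single-end reads to mm10 with Novoalign, placing reads with several matches at random, removed duplicates with Picard, and called ChIP-seq peaks against input with USeq. The ChIP-seq lists deposited by the authors have no column names, and their columns were read as a p score, a q score (−10log10 of the adjusted p-value, from 30 upward) and a log2 ratio of ChIP over input, from the caller's layout and the values. The ChIP-nexus lists deposited by the authors were made with MACS2 2.1.1 and give a whole-number score, the fold enrichment (ratio) at the summit, −log10 of p and q, and the summit position. The control used for them is not given in the sources used here. Read depth is stated by the study but not held in the lists, which name called peaks only. Apart from the remarks on unique reads, it was not used here, so no floor can be set for a gene without a peak.

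The peaks were assigned here to RefSeq transcripts of GRCm38 patch 6 (window of 1 kb on each side of a TSS, the strongest peak per gene), with python 3.11.15, pandas 2.3.3 and scipy 1.17.1. ChIP-nexus regions off the mouse chromosomes (1 in each list) were left out. Single-copy sequence was counted as 50-mers found once in the genome on either strand. The assignment and the counting were tested on simulated peaks and sequence. Values are given per replicate, with mean ± SD where the replicates give a ratio. No significance test was made, since the members and gene lists were chosen with earlier results of these data known and each assay had 2 replicates. Genes were named by a rule: members with a ChIP-nexus peak, the 4 variants, the 8 clustered genes with the best mean rank, the testis and oocyte histones, H1f0 and H1f10, members without a peak, and the extremes of the supply list. Other genes named, such as H2bu2, H4c17, H4f16 and H2aw, were chosen after their values were seen. Alternatives were a stricter score, other windows, GENCODE M21 gene models, single-copy windows, each replicate alone, and pairing of the assays by replicate number. The pairing by number could be used only as a count, because no label ties the same number of the assays to the same mice.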

Additional observations from a re-analysis of the deposited data

How the results depend on the processing

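The count of 69 histone genes with a ChIP-seq peak in both replicates was 69 at a q score above 60, with a peak over the TSS, with GENCODE gene models and with either replicate left out (69 to 69), 72 within 1 kb of the gene body and 73 within 2 kb of a TSS. Limited to windows at least 90% single-copy it was 23, because only 25 genes have such windows (92.0% of them, as before). The ratio of median q scores to all genes was 3.73 to 3.86 with a replicate left out, 3.80 with the peak nearest to the TSS and, in an alternative chosen after seeing the data, 3.83 with each peak counted once. The ratio of clustered genes to variants was 0.633 to 0.788 with a replicate left out and moved from 0.710 to 0.916 with clustered genes limited to single-copy windows, also chosen after seeing the data. The ChIP-nexus count of 20 genes was 17 at −log10 q above 5, 19 by summit and 21 by gene body, and ranged from 0 without replicate 1 to 20 without replicate 2. With assays paired by replicate number (a replicate block), 19 genes had both a ChIP-nexus and a ChIP-seq peak in replicate 1 and 0 in replicate 2. With counts taken as unmoved within 1.5 times the reported count and ratios within 1 SD between replicates, 30 of 34 values under alternatives were unmoved and the 4 others were the 23, the 0.916 and both counts of 0. ChIP-nexus is limited by its few unique reads and short lists, and sequence copies limit what a missing peak shows.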
